A study of Mus musculus with 18 samples.

Results

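The RNA described here is the long-tail fraction of mouse forebrain, the RNA that left a poly(U) column at 90% formamide, compared between transgenic and control mice. It was chosen by the fraction given in the sample titles and made up 6 of the 18 arrays of the study, 3 from transgenic and 3 from control mice. Of 45141 probe sets on the array, 104 manufacturer's controls were left out and 28898 mapped to 1 gene, 17097 genes in all. A filter on the mean over all 18 arrays kept 27022 probe sets and 11974 genes, each represented by its brightest probe set, and 5123 genes had none over the filter.

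The transgenic mice carried TgCPEB4∆4, named for a form of CPEB4, and the control mice are labelled CTRL. All 6 mice were 6 weeks old, and cortex and striatum were dissected and extracted as 1 sample. Every mouse also gave an array of its total RNA and an array of a short-tail fraction released at 25% formamide. The promoter of the transgene, the strain and the genetic makeup of the controls stand in none of the labels. All arrays were hybridised with cDNA amplified over 21 cycles from 5 ng of RNA.

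CPEB proteins bind cytoplasmic polyadenylation elements near the 3′ end of mRNAs and recruit enzymes that lengthen or shorten the poly(A) tail, a form of control that neurons use at synapses. Longer tails hold an mRNA more tightly on poly(U), so that more formamide is needed to release it. A fixed mass of RNA was amplified from each fraction, so a value gives the share of a transcript within the fraction, not its tail length in bases.

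The 6 long-tail arrays did not split cleanly by genotype. On the first principal component, which held 69.9% of the variance, transgenic mice 1, 2 and 3 scored -30.7, -27.0 and -56.9 and control mice 1, 2 and 3 scored 101, -18.9 and 32.2. Control mouse 2 lay beside the transgenic mice, with a mean correlation of 0.969 to their arrays and 0.9 to the other controls. Control mouse 1 stood apart from all others, with mean correlations of 0.812 to transgenic and 0.882 to control arrays. Its highest nonspecific control probe set, which sets the level under which a signal cannot be told from cross-hybridisation, was 7.30. The same measure was 5.64 to 6.29 in transgenic mice and 5.53 and 6.11 in the other controls. Of the probe sets tested, 59.2% stood above this level in control mouse 1 and 90.5% to 99.9% on the other 5 long-tail arrays. On the total RNA arrays the measure was 7.07 to 7.52 and on the short-tail arrays 5.43 to 6.03. Dim genes in total RNA, and differences taken from it, are thus under the same limit. The actin 3′ minus 5′ difference, a sign of RNA integrity, was -0.74, -0.74 and -0.69 in transgenic mice and -1.08, -0.66 and -0.96 in control mice. For Gapdh it was -0.148, -0.145 and -0.128 in transgenic mice and 0.151, -0.179 and -0.115 in control mice. Control mouse 1 was lowest for actin and highest for Gapdh, and the part of either in the results was not tested. The SD over tested probe sets was 1.41 to 1.48 in transgenic and 1.38 to 1.41 in control arrays (exact two-sided permutation test, p = 0.2, where 0.1 is the smallest possible). Over all probe sets, without the filter, it was 1.82 to 1.91 in transgenic and 1.70 to 1.81 in control arrays. There the genotypes did not overlap (exact two-sided permutation test, p = 0.1).

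No transcript of the long-tail fraction passed between the genotypes once all probe sets were counted. With limma, 0 of 27022 probe sets had an adjusted p under 0.05, and the lowest adjusted p was 0.278. At an unadjusted p under 0.05, 3249 probe sets (12%) were higher and 1205 (4.46%) were lower in transgenic mice. Among genes these were 1842 higher, a share of 15.4%, and 321 lower, a share of 2.68%. The median gene differed by 0.08 on the log2 scale, with the middle of the distribution from -0.18 to 0.43 (quartiles). Counts of list members in the long-tail fraction are read against the shares of 15.4% and 2.68%. These shares depended on the scaling: after a new quantile normalization, with 1 mean and SD for all arrays and with arrays centred, the higher share was 11%, 11.4% and 12.3% and the lower share 5.08%, 5.43% and 5.11%. Without the filter they were 11.3% and 5.03%. The higher share also rose with the signal level. In 10 bins of genes by mean level over the 18 arrays it was 1.59% in bin 1, the dimmest, and 22.9% to 27% in bins 7 to 10. The lists were not matched for level.

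Whether any probe set passed depended on the mice and on how the spread was estimated. With all 18 arrays in 1 limma fit and mouse as a random block, 3324 probe sets passed as higher and 1353 as lower (lowest adjusted p = 0.00578). Array weights, in a fit that did not converge, gave 6464 higher and 6105 lower. Without control mouse 2, 2013 probe sets passed as higher and 306 as lower, and the lowest adjusted p was 0.00811 (limma). Leaving out any 1 of the other 5 mice gave 0 calls, with lowest adjusted p from 0.353 to 0.629. Without control mouse 2 the tests compare 3 transgenic mice with the 2 controls farthest from them. Between mice of 1 genotype the median SD of a gene was 0.19 in transgenic and 0.268 in control long-tail arrays. It was 0.144 and 0.124 in total RNA of transgenic and control mice, so the long-tail fraction varied more between mice than its source.

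The genes with the smallest p on the higher side were led by Tyrobp, the signalling adaptor of microglial receptors. Tyrobp read 9.0, 8.17 and 8.30 in transgenic mice and 6.40, 6.63 and 5.96 in control mice, 2.16 ± 0.28 higher on the log2 scale (with its SE; limma, adjusted p = 0.278). The groups did not overlap, and 1 of 3 control arrays stood above its nonspecific controls, so the control level is not exact. Lgals1, a secreted galectin of glia and connective tissue, read 9.58, 9.01 and 9.14 in transgenic mice and 8.01, 7.76 and 7.61 in control mice (1.45 ± 0.21). Psmg4, an assembly chaperone of the proteasome, read 7.75, 7.50 and 8.07 in transgenic mice and 6.66, 6.72 and 6.55 in control mice (1.13 ± 0.19). Rps26, a protein of the small ribosomal subunit, varied little within either genotype. It read 10.49, 10.41 and 10.60 in transgenic mice and 9.68, 9.53 and 9.42 in control mice (0.95 ± 0.17).

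The next genes by p were of mixed kinds. They were the myelin protein Pmp22 (1.34), the translocon-associated protein Ssr4 (1.28), the mTORC1 inhibitor Ddit4 (1.29), the radial glial fatty acid carrier Fabp7 (1.94), Ctxn2 (1.66), Smim4 (1.89), the cold-inducible RNA-binding protein Cirbp (1.87) and Islr (1.34), a mesenchymal surface protein. All 12 were without overlap between the groups, as were 2174 genes on this side (18.2%), and none passed (adjusted p = 0.278 for each). Ctxn2, Smim4 and Islr stood above the nonspecific controls on 1 of 3 control arrays. In control mouse 1 Psmg4, Pmp22, Ssr4, Ddit4, Fabp7 and Cirbp also lay under its level of 7.30, so their control means are not exact. Ssr4 had 2 further probe sets, at 0.73 and 0.11, so the size of its difference depended on the probe set. Some of the 12 also differed in total RNA. There Islr read 7.78, 7.05 and 6.58 in transgenic mice and 5.80, 5.74 and 5.845 in control mice. Cirbp read 9.05, 8.27 and 7.86 in transgenic mice and 6.98, 6.93 and 6.73 in control mice. All control readings of both genes lay under the nonspecific level of those arrays, 7.07 to 7.52, so these control means are not exact. Islr lay under it in transgenic mice 2 and 3 as well. Ssr4 overlapped there, at 8.68, 8.50 and 8.33 in transgenic mice and 8.38, 8.50 and 8.24 in control mice.

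On the lower side the smallest p belonged to Cdr1os, a long noncoding RNA. Cdr1os read 6.58, 6.49 and 6.58 in transgenic mice and 7.86, 7.41 and 7.86 in control mice, for a log2 change of -1.16 ± 0.19 (with its SE; limma, adjusted p = 0.278). Its 3 transgenic values lay close together, and the groups did not overlap. Rgs9, the GTPase activator that ends dopamine and opioid receptor signals in striatal neurons, read 9.68, 9.49 and 9.56 in transgenic mice and 10.997, 10.16 and 10.48 in control mice (-0.97 ± 0.23). Homer1, the scaffold that ties metabotropic glutamate receptors to the postsynaptic density, read 9.14, 9.64 and 9.49 in transgenic mice and 10.78, 10.12 and 10.11 in control mice (-0.92 ± 0.24). In both genes control mouse 1 was the highest of the 6 arrays. Both were also lower in total RNA. There Rgs9 read 8.90, 9.05 and 9.27 in transgenic mice and 9.63, 9.65 and 9.60 in control mice. Homer1 read 9.75, 10.305 and 10.53 in transgenic mice and 10.79, 10.865 and 10.68 in control mice. Cdr1os overlapped there, at 7.03, 7.34 and 6.71 in transgenic mice and 7.41, 6.89 and 7.02 in control mice.

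For several genes of this side more than 1 probe set could be read. The 2 further probe sets of Rgs9 were lower by -0.72 and -0.54. The 4 further probe sets of Homer1 differed by -0.78, -0.63, -0.61 and -0.44, and those of Ago3, an Argonaute protein of microRNA silencing, by -0.87, -0.75, -0.58 and -0.25 beside its brightest at -0.73. Over all genes at an unadjusted p under 0.05, 1037 of 1296 further probe sets had the sign of the brightest one, and 476 had that sign and an unadjusted p under 0.05.

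The other genes named on the lower side were the actin oxidoreductase Mical2 (-0.99), Krt20 (-0.81), the activin subunit Inhba (-1.01), the phosphatase regulator Ppp1r16b (-0.86), the M-current channel subunit Kcnq3 (-0.99), Mei1 (-0.92), the channel subunit Kcnh7 (-1.16) and Dock4 (-0.72), an activator of Rac. All 12 were without overlap, as were 915 genes on this side (7.64%). Without control mouse 2, 22 of the 24 passed, with Mei1 and Homer1 the exceptions (adjusted p = 0.0683 and 0.0542, limma), where 9.5% of all genes passed as higher and 0.71% as lower. The 24 were picked by the smallest p, so this count is no support for them, and without any 1 of the other mice 0 of 24 passed.

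**Figure D1:**
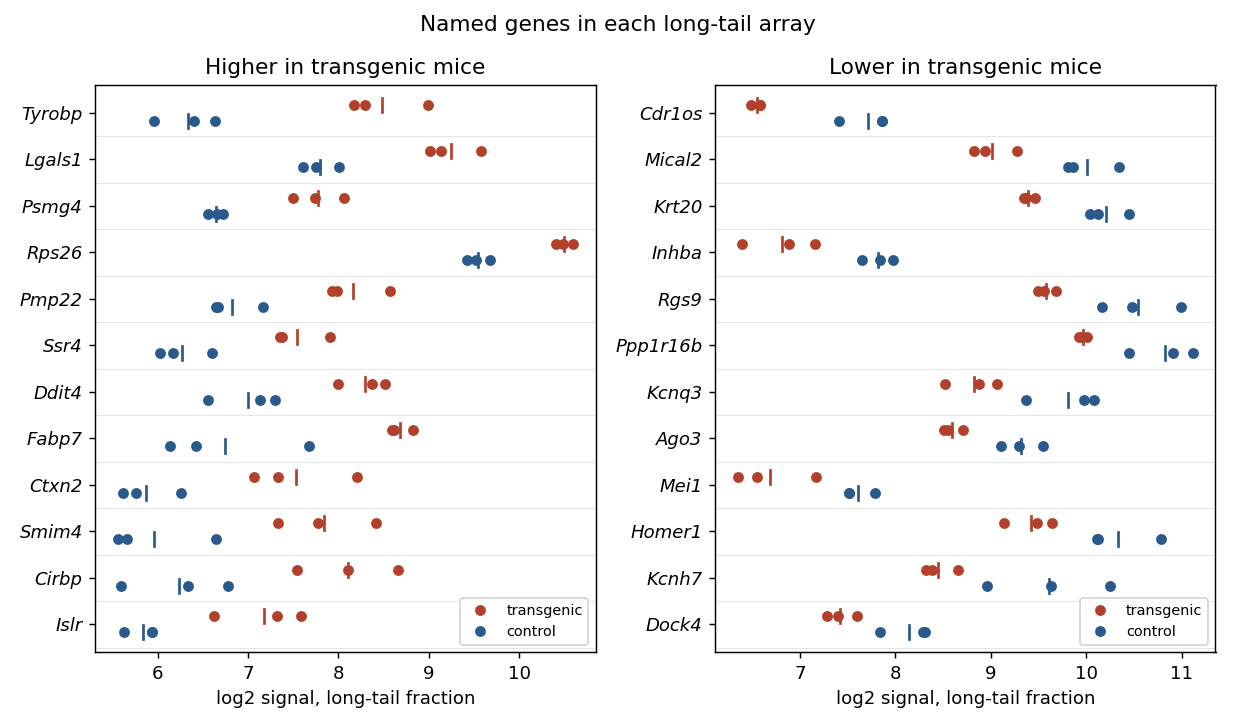
Log2 signal in each long-tail array for the 12 genes higher and the 12 genes lower with the smallest p. Dots are mice, upper row of each gene transgenic and lower row control, and ticks are means of 3 mice. No gene shows an overlap, and Tyrobp shows the widest gap of means, 2.16, while none passed after adjustment.

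The mRNAs of the cytosolic ribosome were higher almost throughout. Of 67 ribosomal protein genes tested, 57 were higher at an unadjusted p under 0.05 and 0 were lower, against 15.4% and 2.68% of all genes, and their median log2 difference was 1.06 against 0.08 for all genes. Rpl31, of the large subunit, read 10.73, 10.96 and 11.46 in transgenic mice and 9.88, 10.09 and 9.72 in control mice (1.15 ± 0.23, SE). Rpl12 read 9.27, 8.95 and 9.47 in transgenic mice and 6.96, 8.32 and 6.77 in control mice (1.88 ± 0.39). Control mouse 2 was the nearest control to the transgenic mice in Rpl12, and also in Rpl4, which read 12.15, 11.96 and 11.99 in transgenic mice and 10.31, 11.91 and 11.22 in control mice (0.88 ± 0.36). Rps2, named for its signal level, differed by 0.32 and read 12.65, 12.48 and 12.55 in transgenic mice and 12.26, 12.41 and 12.05 in control mice. Ribosomal protein genes have many near-identical pseudogene copies, and how far their probes tell these apart was not tested.

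Array by array, the median signal of the 67 ribosomal genes was 10.3, 10.2 and 10.5 in transgenic mice and 8.84, 9.63 and 8.47 in control mice. The groups did not overlap, and control mouse 2 stood between the other controls and the transgenic mice. Leaving out 1 mouse moved the median difference between 0.863 (without control mouse 3) and 1.30 (without control mouse 2), and without control mouse 1 it was 1.06, with 62 of 67 genes higher at an unadjusted p under 0.05, where 11% of all genes were. Without control mouse 2, 41 of 67 passed as higher after adjustment, against 9.5% of all genes.

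Total RNA of the same mice differed far less. There the ribosomal list had a median difference of 0.21 with 15 of 67 genes higher, where 8.19% of all genes were, and in the short-tail fraction it had 0.06 with 8 of 67, where 11.3% of all genes were. Rps26 itself differed by 0.22 in total RNA and by 0.02 in the short-tail fraction. Taken within each mouse, the ribosomal median of long-tail minus total RNA was -0.90, -0.79 and -0.47 in transgenic mice and -1.57, -1.13 and -2.04 in control mice. Ribosomal mRNAs were thus a smaller share of the long-tail fraction than of total RNA in all 6 mice, and less so in each transgenic mouse than in each control mouse. No probe set passed in the test of this within-mouse difference (lowest adjusted p = 0.692, limma), and 782 genes (6.53%) were higher and 111 (0.927%) lower at an unadjusted p under 0.05, among them 45 of 67 ribosomal genes higher.

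The rest of the translation machinery lay on the same side with smaller sizes. Mitochondrial ribosomal proteins were higher for 36 of 73 genes and lower for 0, with a median of 0.50. Among them Mrpl30 read 8.24, 7.98 and 8.53 in transgenic mice and 6.31, 7.48 and 6.78 in control mice (1.39 ± 0.31). Initiation and elongation factors were higher for 22 of 48 genes and lower for 0, with a median of 0.46. Eif2s2, a subunit of the factor that brings the initiator tRNA, differed by 1.02 ± 0.24, and Eef1a1, the elongation factor that delivers aminoacyl-tRNA, by 0.60 ± 0.22, whereas the RNA helicase cofactor Eif4h differed by 0.03.

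Nuclear-encoded subunits of the respiratory chain lay on the same side. Of 32 complex I genes, 29 were higher at an unadjusted p under 0.05 and 0 lower, with a median of 1.16, and of 44 genes of complexes II to V, 34 were higher and 0 lower, with a median of 1.00. Ndufb5, a subunit of the membrane arm of complex I, read 8.48, 8.48 and 9.20 in transgenic mice and 6.41, 7.91 and 6.50 in control mice (1.78 ± 0.41). Uqcrq, of the cytochrome bc1 complex, read 10.39, 10.61 and 11.17 in transgenic mice and 9.05, 9.81 and 8.11 in control mice (1.73 ± 0.41). Cox6a1, of cytochrome c oxidase, read 11.52, 11.51 and 11.84 in transgenic mice and 10.55, 11.01 and 10.03 in control mice (1.09 ± 0.26). In these 3 genes every transgenic mouse stood above every control mouse, and control mouse 2 was the highest control.

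Transgenic mouse 3 was the highest of the 6 arrays for 32 of 32 complex I genes and for 38 of 44 genes of complexes II to V. Without it the complex I median was 1.01, and it was 0.98 to 1.42 over all single mice left out. In total RNA complex I had a median of 0.09 with 0 of 32 genes higher, where 8.19% of all genes were, and in the short-tail fraction 0.01 with 0 of 32, where 11.3% were. Within each mouse, the complex I median of long-tail minus total RNA was -1.10, -0.87 and -0.41 in transgenic mice and -2.21, -1.39 and -2.25 in control mice. The genotypes did not overlap in this measure, and 28 of 32 genes were higher in it at an unadjusted p under 0.05, where 6.53% of all genes were. Mitochondrial import genes, which bring these proteins into the organelle, were higher for 9 of 20 with a median of 0.53, with Tomm7 at 1.36 ± 0.33.

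Subunits of the proteasome formed a further group. Of 43 genes, 31 were higher and 0 lower at an unadjusted p under 0.05, with a median of 0.96, and 13 were higher in total RNA, where 8.19% of all genes were and their median was 0.18. Psmd8, of the regulatory cap, read 10.07, 9.84 and 10.22 in transgenic mice and 8.84, 9.38 and 9.04 in control mice (0.96 ± 0.20). Psmb1, a core subunit, read 8.72, 8.67 and 9.16 in transgenic mice and 6.96, 8.22 and 6.84 in control mice (1.51 ± 0.37). The array medians of the list were 9.30, 9.21 and 9.62 in transgenic mice and 7.89, 8.94 and 8.19 in control mice, without overlap. In long-tail minus total RNA the list medians were -0.52, -0.47 and -0.20 in transgenic mice and -1.47, -0.52 and -1.30 in control mice, so that control mouse 2 tied with the lowest transgenic mouse. Ubiquitin-conjugating enzymes, which act before the proteasome, were higher for 6 of 30 and lower for 0, close to the share of all genes.

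Splicing and folding factors were higher in part. Core snRNP and Lsm genes were higher for 12 of 23 with a median of 0.61. SR and hnRNP genes were higher for 6 of 25 with a median of 0.74, which was 0.32 without control mouse 1 and so rested in large part on that array. Their share of 24% lay within the 22.9% to 27% of bright genes, bins 7 to 10 by mean level. Srsf3, which regulates exon choice, read 9.20, 9.47 and 9.80 in transgenic mice and 7.0, 9.31 and 7.92 in control mice (1.41 ± 0.51), so that control mouse 2 overlapped with the transgenic mice. Heat shock proteins and chaperones were higher for 22 of 67 with a median of 0.37, which was 0.24 without control mouse 1 and 0.56 without control mouse 2. Hspb8, a small heat shock protein, read 10.56, 9.08 and 8.65 in transgenic mice and 7.58, 8.03 and 7.36 in control mice (1.77 ± 0.46).

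**Figure D2:**
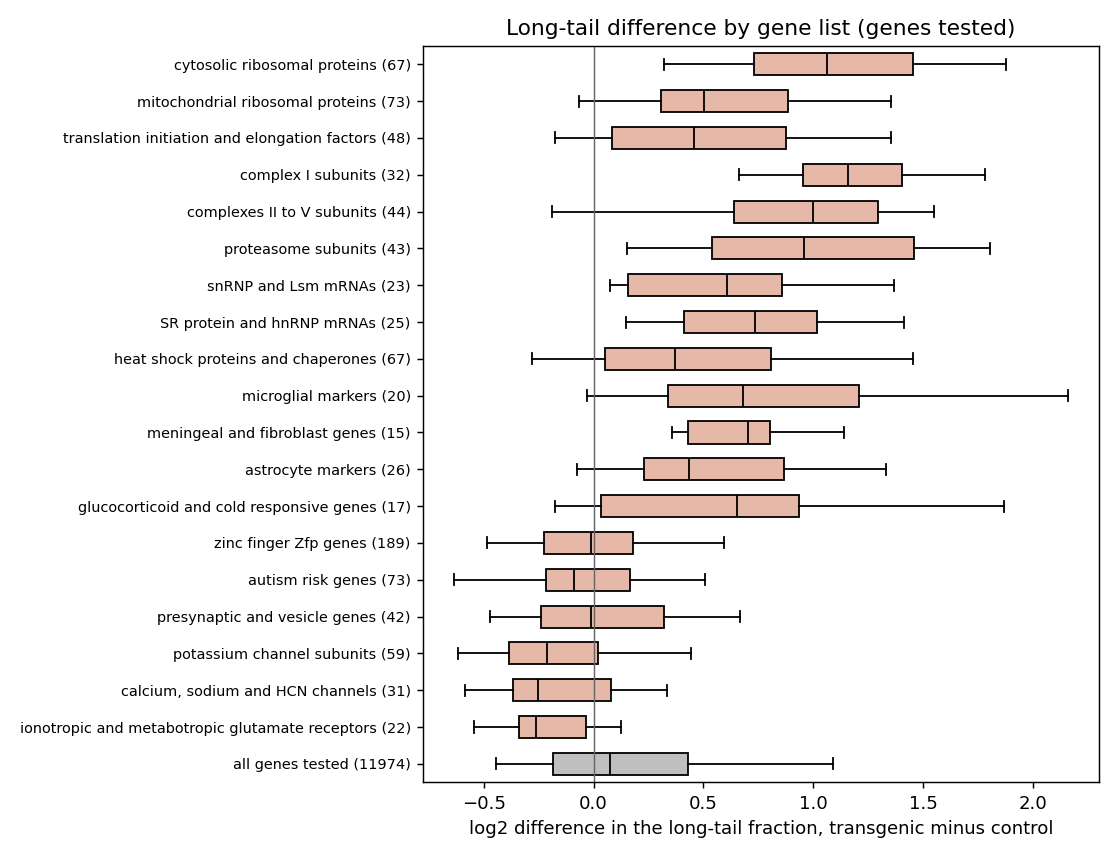
Log2 difference between transgenic and control mice in the long-tail fraction for the tested genes of 19 lists and for all 11974 genes tested (grey). Boxes are quartiles with the median, whiskers run from the 5th to the 95th percentile, and the number of genes is in brackets. Complex I (median 1.16) and the cytosolic ribosome (1.06) lie farthest right and glutamate receptors (-0.26) farthest left.

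The promoters of these groups, the stretches of DNA where transcription starts, were compared by their letters. The word CCGGAAG, the core bound by ETS-family factors, was searched on both strands from 250 bases before to 50 bases after the start in RefSeq windows of build GRCm38.p6. It was present in 23 of the 53 ribosomal genes that had a window (43.4%), in 11 of 36 proteasome genes (30.6%), in 10 of 32 genes of complexes II to V (31.2%) and in 3 of 29 complex I genes (10.3%). It was present in 2 of 44 potassium channel genes (4.55%), in 16.3% of 9645 tested genes with a window and in 9.12% of all 27025 windows. The 6 stretches shown are those of the members with the smallest p in 3 lists that hold the word before the start, in capitals on the gene's own strand, where CTTCCGG is the word on the opposite strand. The word began at -214 to -16 in these 6, with the one nearest the start taken in each.
Rps26, chr10:128626702-128626731, minus strand, word from -214: ttaatcttccgCCGGAAGgttaaatagttc
Rps10, chr17:27635255-27635284, minus strand, word from -29: agccgcgcagcCCGGAAGagacgctgcgcc
Cox6a1, chr5:115348959-115348988, minus strand, word from -16: cgtccccatttccgCTTCCGGcgcgccggt
Atp5l, chr9:44920936-44920965, minus strand, word from -212: acttcaccgatCTTCCGGaccaacatgaat
Psmc2, chr5:21785180-21785209, plus strand, word from -84: accagtgagcaCTTCCGGgatggggctcgc
Psmd4, chr3:95042721-95042750, minus strand, word from -125: ttacagctgttCCGGAAGctgctgcgaagg
A match is a description of the letters and not of a bound site. The word CTTTCC within 25 bases of the start, on the gene's strand, was in 6 of 53 ribosomal windows (11.3%) and 2.12% of tested genes. It was also in 3 of 36 proteasome windows (8.33%), and in 0 of 29 complex I windows and 0 of 32 windows of complexes II to V. The palindrome bound by NRF1, searched in the whole window, was in 4 of 32 windows of complexes II to V (12.5%) and in 1.89% of tested genes. It was in 1 of 29 complex I windows (3.45%), in 2 of 36 proteasome windows (5.56%) and in 1 of 53 ribosomal windows (1.89%). The genes also differed in size, with a median genomic length of 3.18 kb for ribosomal and 7.48 kb for complex I genes against 22.8 kb for all genes tested.

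Several lists had medians below 0, with smaller differences and fewer genes at the threshold. The lowest median, -0.31, belonged to 6 hypothalamic genes, which are markers of a region outside the label, and 0 of these were lower at an unadjusted p under 0.05. Ion channel and glutamate receptor mRNAs came next. Of 59 potassium channel subunits 8 were lower and 2 higher at an unadjusted p under 0.05, where 2.68% and 15.4% of all genes were, and their median was -0.21. Their array medians were 7.99, 8.26 and 8.38 in transgenic mice and 8.36, 8.39 and 8.26 in control mice, which overlapped. Kcnq3, of the channel that restrains repetitive firing, read 8.52, 9.07 and 8.87 in transgenic mice and 9.97, 9.37 and 10.09 in control mice (-0.99 ± 0.25). Kcnh7 read 8.32, 8.66 and 8.38 in transgenic mice and 10.25, 8.97 and 9.63 in control mice (-1.16 ± 0.31). Kcnj6, an inward rectifier opened by G proteins, read 8.78, 9.18 and 8.78 in transgenic mice and 9.66, 9.52 and 9.41 in control mice (-0.62 ± 0.19). In all 3 the groups did not overlap and control mouse 2 lay nearest to the transgenic mice or between the other controls.

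Glutamate receptors were lower for 3 of 22 genes and higher for 0, with a median of -0.26. Their array medians overlapped between the genotypes, so the list does not separate the mice. Grin2a, the NMDA receptor subunit of mature synapses, read 6.34, 6.74 and 6.51 in transgenic mice and 8.2, 7.0 and 7.55 in control mice (-1.05 ± 0.30). Grm5, the metabotropic receptor that Homer1 binds, read 9.31, 9.42 and 9.45 in transgenic mice and 9.86, 9.62 and 9.89 in control mice (-0.40 ± 0.17). Gria1, named for its signal level, differed by 0.17, and Gria3 by -0.29 with no overlap. Calcium, sodium and HCN channels were lower for 2 of 31 and higher for 0, with a median of -0.25, and their array medians also overlapped. Scn1a, the sodium channel of inhibitory neurons, read 8.93, 9.21 and 9.35 in transgenic mice and 10.31, 9.43 and 9.86 in control mice (-0.70 ± 0.25).

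Leaving out control mouse 1 brought these medians nearer to 0, to -0.18 for potassium channels, -0.18 for glutamate receptors and -0.14 for calcium, sodium and HCN channels. Each kept its sign under every alternative tried. In total RNA the same lists had medians of -0.10, -0.10 and -0.11, and within-mouse differences of long-tail minus total RNA were -0.17, -0.12 and -0.10. Windows of 24 calcium, sodium and HCN channel genes held CCGGAAG in 0 cases. Median genomic lengths were 298 kb for glutamate receptors and 36.2 kb for potassium channels, against 22.8 kb for all genes tested. Ubiquitin-conjugating enzymes, with a long-tail median of 0.39, also had 36.2 kb.

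Postsynaptic scaffolds and adhesion genes were lower for 3 of 29 (10.3%) and higher for 1 at an unadjusted p under 0.05, and 24 of 29 lay below 0. Their median of -0.09 was -0.26 after a new quantile normalization and -0.33 with 1 mean and SD for all arrays. Presynaptic genes were lower for 1 of 42 and higher for 1, with a median of -0.01 that was -0.12 and -0.14 under these scalings. Sorbs2, an actin-binding scaffold, differed by -0.58 ± 0.17, and Bsn, which organises the active zone, by -0.73 ± 0.24. Shank3, a postsynaptic scaffold tied to autism, read 8.39, 8.26 and 8.46 in transgenic mice and 9.63, 8.43 and 9.24 in control mice (-0.73 ± 0.30), so that control mouse 2 overlapped with the transgenic mice. Snap25, of the vesicle fusion machinery, differed by -0.05.

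Genes associated with autism were few at the threshold. Of 73 tested, 0 were higher and 4 lower at an unadjusted p under 0.05, a share of 5.48% against 2.68% of all genes. Their median of -0.09 was -0.23 after a new quantile normalization and -0.03 without control mouse 3. The 4 were Ubn2 (-0.73), Scn1a, Shank3 and the transcription factor Foxp1 (-0.46). Chromatin regulators, a class that overlaps with autism genes, were higher for 2 and lower for 2 of 51, with Smarca5, a nucleosome-sliding ATPase, at 0.77 ± 0.19 and Dnmt3a, a DNA methyltransferase, at -0.71 ± 0.28. Zinc finger genes of the Zfp name were higher for 11 and lower for 9 of 189, with a median of -0.01.

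The machinery of the poly(A) tail itself was measured as well. No CPEB gene passed. Cpeb3, which represses synaptic mRNAs, read 8.82, 9.08 and 8.56 in transgenic mice and 9.47, 9.11 and 9.28 in control mice (-0.46 ± 0.20; adjusted p = 0.301, limma), but its second probe set differed by -0.03. The brighter Cpeb4 probe set read 7.25, 7.25 and 7.02 in transgenic mice and 6.31, 7.46 and 7.43 in control mice (0.11 ± 0.31), and the other differed by 0.94 with control mouse 1 at 4.90, the lowest array. Both readings of control mouse 1 lay under its nonspecific level of 7.30, so neither control mean is exact. Which of these probe sets reads the transgene is stated nowhere in the labels. Cpeb1 differed by 0.42, with control mouse 1 at 7.17, also under 7.30. Cpeb2 differed by 0.06 and 0.14 over 2 probe sets, which stood above the nonspecific controls on 1 of 3 arrays in either genotype.

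Deadenylases and their recruiters were higher for 6 of 17 and lower for 0, with a median of 0.23 that was 0.65 with a filter at the 60th percentile and 0.14 with centred arrays. In total RNA their median was 0.24 with 5 of 17 higher, where 8.19% of all genes were. Long-tail minus total RNA within mice had a median of 0.04 with 1 of 17 higher, where 6.53% of all genes were. Btg1, which stimulates the CCR4-NOT deadenylase, read 8.78, 8.24 and 8.49 in transgenic mice and 5.6, 8.03 and 6.50 in control mice (1.79 ± 0.54). Zfp36l1, which recruits that complex to AU-rich mRNAs, read 9.51, 8.51 and 8.68 in transgenic mice and 6.08, 8.32 and 7.63 in control mice (1.55 ± 0.54). Parn, a poly(A)-specific ribonuclease, differed by 0.65 ± 0.25 and Pan3, of the PAN2-PAN3 deadenylase, by 1.01 ± 0.43. In each of these control mouse 1 was the lowest array, and for Btg1 control mouse 3 was low as well. For Btg1 and Zfp36l1 control mouse 1 lay under its nonspecific level of 7.30. Polyadenylation factors were higher for 2 of 26 and lower for 0, with Rbbp6 at 0.59 ± 0.16 and groups of 9.72, 9.52 and 9.73 in transgenic mice and 9.01, 9.11 and 9.07 in control mice.

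A second kind of difference was present in total RNA too, for some lists with medians of about the same size. For markers of a cell type, as in any tissue sample, the number of cells and the RNA per cell cannot be told apart. Microglial markers were higher for 9 of 20 genes and lower for 0, with medians of 0.68 (long-tail), 0.71 (total RNA) and 0.54 (short-tail). C1qb, a complement subunit made by microglia, read 10.41, 9.04 and 9.02 in transgenic mice and 7.35, 8.06 and 6.83 in control mice (2.08 ± 0.44). In total RNA C1qb read 11.16, 9.93 and 9.40 in transgenic mice and 9.21, 9.21 and 9.10 in control mice. Its gap was smaller there than in the long-tail fraction. Transgenic mouse 1 was the highest array for 17 of 20 microglial genes. Meningeal and fibroblast genes were higher for 11 of 15 and lower for 0, with medians of 0.70 (long-tail), 0.52 (total RNA) and 0.69 (short-tail), and 12 of 15 were highest in transgenic mouse 1. Igf2, made by the meninges, read 11.23, 10.80 and 10.10 in transgenic mice and 9.90, 10.03 and 9.96 in control mice (0.75 ± 0.28).

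Astrocyte markers were higher for 12 of 26 and lower for 0, with a long-tail median of 0.43 and a total RNA median of 0.31, and 20 of 26 were highest in transgenic mouse 1. Aqp4, the water channel of astrocyte endfeet, differed by 0.94 ± 0.27, while the glutamate transporter Slc1a2, named for its signal level, differed by -0.14. Interferon and inflammation genes had a median of 0.69 with 5 of 20 higher, which was 0.16 without transgenic mouse 1. Serpina3n, an acute-phase protein of reactive astrocytes, read 11.73, 8.29 and 6.74 in transgenic mice and 6.35, 6.29 and 6.21 in control mice (2.64 ± 1.05). Genes responsive to glucocorticoids or cold were higher for 9 of 17, with a long-tail median of 0.66, set against 0.35 in total RNA and 0.31 in the short-tail wash. The long-tail median was 0.39 without transgenic mouse 1, in which 12 of 17 were highest. Nfkbia, the inhibitor of NF-kappaB, differed by 0.88 ± 0.19.

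The within-mouse difference from total RNA set the 2 kinds side by side. For microglial, meningeal and astrocyte lists its medians were 0.12, 0.06 and 0.08, against 0.84 for the cytosolic ribosome, 1.03 for complex I, 0.72 for the proteasome and 0.03 for all genes. At an unadjusted p under 0.05, 5 of 20 microglial genes, 1 of 15 meningeal genes and 1 of 26 astrocyte genes were higher in this measure, where 6.53% of all genes were. Tyrobp differed by 1.33 in it, with 2.16 in the long-tail fraction and 0.83 in total RNA. Meningeal genes had per-mouse medians of 0.10, 0.03 and 0.13 in transgenic mice and 0.05, 0.16 and -0.08 in control mice, which overlapped. Oligodendrocyte genes were higher for 2 of 25 and lower for 0 in the long-tail fraction, a share below that of all genes. Their long-tail median of 0.27 was 0.13 without control mouse 1 and 0.16 without transgenic mouse 3, and their total RNA median was -0.09. Mbp, the major myelin protein mRNA, read 11.95, 11.91 and 11.91 in transgenic mice and 11.97, 11.95 and 11.91 in control mice.

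**Figure D3:**
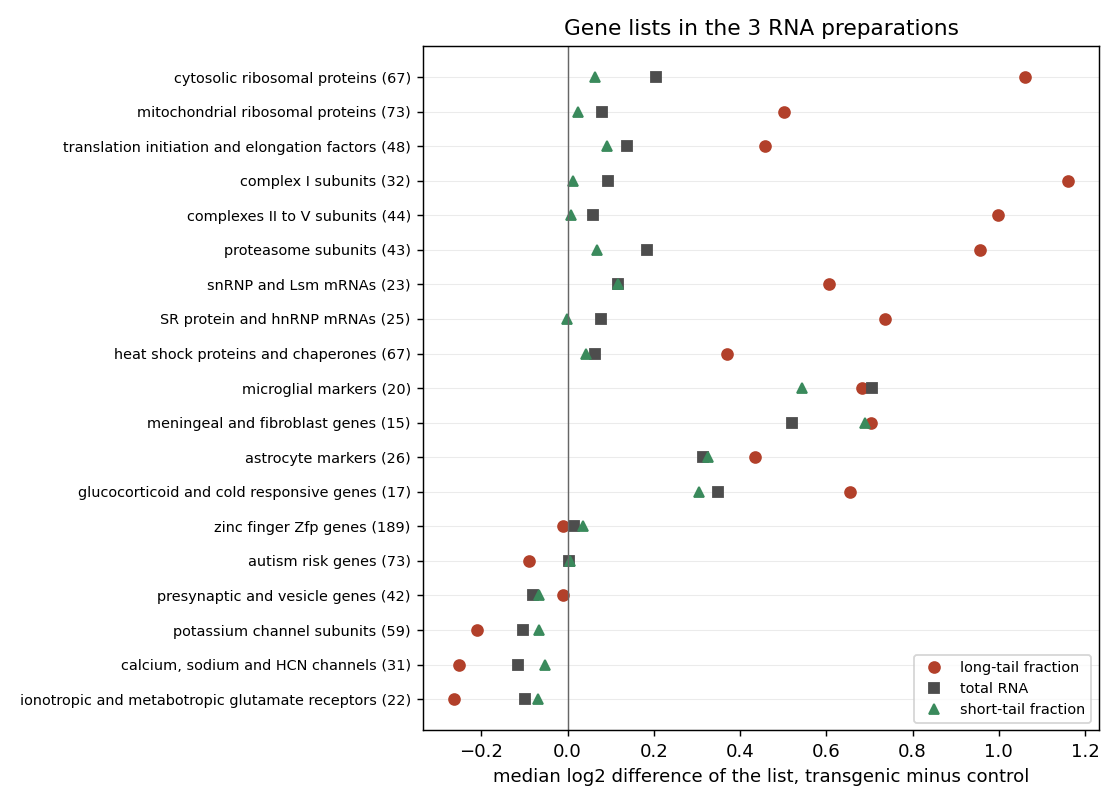
Median log2 difference between transgenic and control mice for 19 gene lists in the long-tail fraction (circles), total RNA (squares) and the short-tail fraction (triangles), with the number of genes in brackets. For the ribosome, the respiratory chain and the proteasome the long-tail median stands apart from the other preparations, and for microglial (0.68, 0.71, 0.54) and meningeal genes (0.70, 0.52, 0.69) the 3 lie together.

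Markers of both regions of the label, cortex and striatum, were read. Striatal projection neuron genes were lower for 4 of 30 and higher for 1 in the long-tail fraction, with a median of -0.11 that was -0.28 with 1 mean and SD for all arrays, against -0.14 with 8 of 30 lower in total RNA, where 3.1% of all genes were. Hpca, a calcium sensor abundant in forebrain neurons, read 12.70, 12.57 and 12.59 in transgenic mice and 12.68, 12.75 and 12.68 in control mice. Cortical projection neuron genes were higher for 2 and lower for 2 of 22, with a median of 0.00 that was -0.08 after a new quantile normalization and -0.09 with arrays centred or set to 1 mean and SD. Tac1, the substance P precursor of striatal neurons, differed by 0.97 ± 0.37 in the long-tail fraction and by 0.04 in total RNA. It had the highest long-tail difference of the striatal list and Rgs9 the lowest, -0.97, and 21 of the 30 genes lay below 0.

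**Figure D4:**
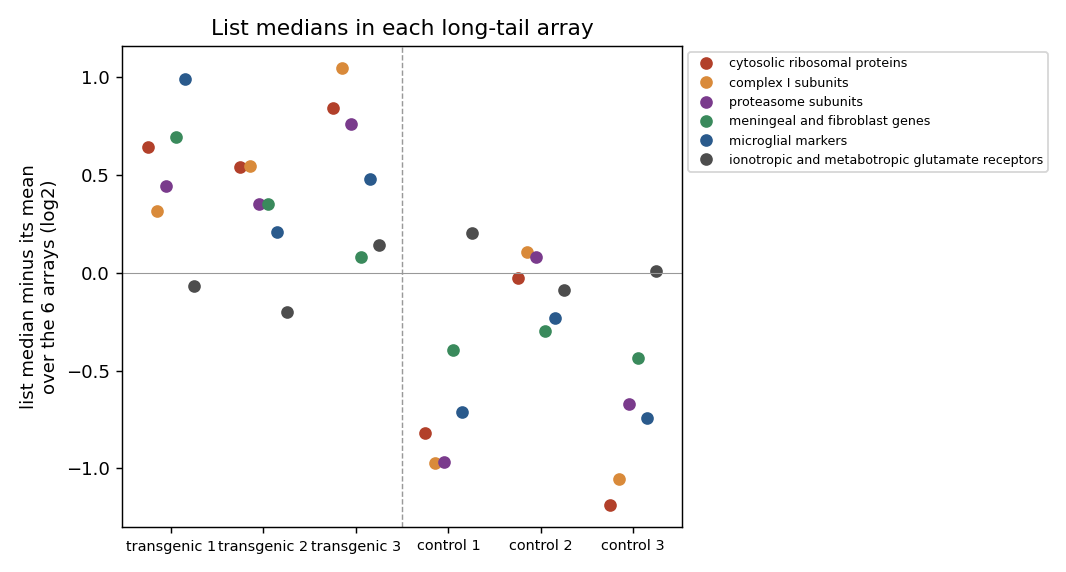
Median log2 signal of 6 gene lists in each long-tail array, less its mean over the 6 arrays, transgenic mice left of the dashed line and control mice right of it. Dots of 1 colour are 1 list. Control mouse 2 stands above the other controls for ribosomal (9.63 against 8.84 and 8.47), complex I and proteasome genes, and transgenic mouse 1 is highest for microglial and meningeal genes.

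The signal of an mRNA in the short-tail fraction relative to total RNA ran parallel to its long-tail difference. The nonspecific level was 7.07 to 7.52 on total RNA arrays and 5.43 to 6.03 on short-tail arrays. For dim genes the ranking can thus reflect this level and not release from the column, and the part of either was not tested. Genes were ranked by short-tail minus total RNA, averaged over all 6 mice with no long-tail array used, and cut into 10 bins of about equal size. The median long-tail difference was -0.31 in the lowest bin and 0.52 in the highest, and it increased from each bin to the next. In the lowest bin 10.5% of genes were higher in transgenic mice and in the highest 92.8% were. Across 11974 genes Spearman's rho was 0.61, as a description, since genes share arrays and are not independent. The mean level gave 0.39 and genomic length -0.11.

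In total RNA the same bins had medians of -0.11 and 0.16 at the ends, a smaller slope with the same direction. The gap between the end bins, 0.831 in the long-tail fraction, was 0.537 without control mouse 1, 0.594 without transgenic mouse 3 and 1.07 without control mouse 2. The lists did not all follow this ranking. Ribosomal genes, with a median long-tail difference of 1.06, had a median short-tail minus total RNA of 0.03, below the 0.13 of all genes, and complex I genes had 0.16. Glutamate receptors had -0.04 and calcium, sodium and HCN channels -0.08.

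**Figure D5:**
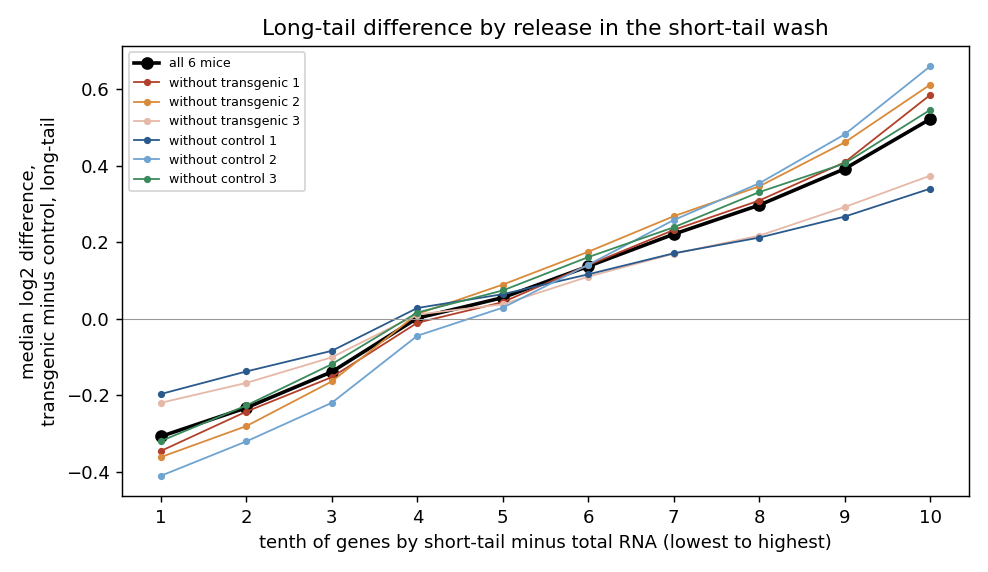
Median log2 difference between transgenic and control mice in the long-tail fraction for 10 bins of genes ranked by short-tail minus total RNA, with all 6 mice (black) and with each mouse left out. The black line runs from -0.31 to 0.52, every line increases from left to right, and the slope is least without control mouse 1 (0.537 between the end bins).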

How the data were processed

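The authors deposited log2 values per probe set, made with RMA per the submitters' processing notes, with no version or list of the arrays in each run. RMA makes array distributions alike, so a shift shared by most transcripts cannot be seen. The series text names another array design than the probe set names, and the probe annotation was used. It gave several genes for 551 probe sets and none for 15588, which were tested and not named. RefSeq symbols (GRCm38.p6) changed 0 names.

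Probe sets with a mean over 18 arrays above the 40th percentile (5.95) were tested with limma 3.58.1 in R 4.3.3, Benjamini-Hochberg adjustment over all 27022 and a threshold of 0.05. Long-tail, total and short-tail arrays were compared separately, and long-tail minus total RNA within mice. Named genes were the 12 with the smallest p in each direction, every CPEB probe set and, from each list, up to 4 members by p and up to 2 by level. The members, lists and tests were chosen with earlier results of these data known. The limma model was tested on simulated data. Arrays have no read depth: the 3 mice per genotype limit precision. Same-numbered mice did not pair (correlations of 0.25, -0.2 and 0.15). Alternatives changed the filter, scaling, probe summary, variance model and mice.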

Additional observations from a re-analysis of the deposited data

How the results depend on the processing

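With 18 alternatives, each of which changed the filter, the scaling, the probe summary, the variance model or the mice, the long-tail count of 0 probe sets at an adjusted p under 0.05 held in 15. It was 12569 with array weights, a fit that did not converge and gave control mouse 3 a weight of 190, and 4677 with all 18 arrays and mouse as a random block. Leaving out single mice gave 0 to 2319, the highest without control mouse 2. At an unadjusted p under 0.05 the higher probe sets (3249) became 7272 with array weights, 6005 with the random block and 1475 to 5295 when single mice were left out. The lower ones (1205) became 2879 without a filter, 595 with a filter at the 60th percentile, 7518 with array weights, 4184 with the random block and 533 to 3166 when single mice were left out. Scaling changed the split of higher to lower, 3249 to 1205 as deposited, to 2385 to 1980 after a new quantile normalization, 2434 to 2140 with 1 mean and SD for all arrays and 2559 to 2097 with arrays centred on the median. The median gene then differed by -0.002, -0.02 and -0.01 in place of 0.08.

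The replicate block gave 0 probe sets with a lowest adjusted p of 0.233. The short-tail count of 0 was 4 with 1 mean and SD for all arrays and 0 to 359 when single mice were left out, 359 without transgenic mouse 3. The count for long-tail minus total RNA was 0 to 196, the highest without control mouse 2. The difference in array SD, 0.0502, was 0.0985 without a filter. The gap between the end bins kept its direction at 0.537 to 1.07.

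Of 76 named genes, 5 changed sign under some alternative. Cpeb2 was -0.0246 with centred arrays, -0.181 with array weights and -0.225 to 0.244 when single mice were left out. Cpeb4 was -0.206 with array weights and -0.267 to 0.306 when single mice were left out. Eif4h was -0.0164 after the new quantile normalization, -0.223 with 1 mean and SD and -0.0577 with centred arrays. Gria1 was -0.0551 with 1 mean and SD, and Mbp was 0.00671 with array weights. Where no cause is given, the cause was not tested. The small number of mice limits what can be read. So does, for dim genes, the high nonspecific signal of control mouse 1 and of the total RNA arrays. Among others, Rpl12, Ndufb5, Psmb1, Mrpl30, Btg1 and Zfp36l1 read under the level of 7.30 in control mouse 1.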
